A study of Mus musculus with 9 samples.

Results

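Interferon-stimulated genes are the genes that a cell switches on when interferon, a secreted antiviral signal, reaches its surface. A set of 47 of them was followed across the 9 RNA-sequencing libraries of the study. The members were chosen as the rows of the count table that carry the listed gene symbols, and all 47 were found among its 21939 genes. All 47 passed the filter on low counts over the 9 libraries, which kept 15127 genes. With the aged and young libraries alone 42 passed it, so that Ifit3, Ifit3b and Oasl1 were tested through their aged+Ri counts, and Mx1 and Mx2 failed with any 2 of the groups.

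Interferon binds its receptor, and the kinases Jak1 and Tyk2 then activate transcription factors, which bind a short DNA element in the promoters of the target genes. The products of these genes sense foreign RNA, block translation, degrade RNA, stop virus entry at membranes, or feed back on the signal itself. In haematopoietic stem cells, interferon is known to act on the cell cycle, a part of these genes is known to be on without infection, and Ly6a, which encodes the sorting antigen Sca1, is itself interferon-inducible.

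The cells were long-term haematopoietic stem cells (LT-HSCs) from the bone marrow of C57BL/6 mice, and 3 groups of 3 libraries were compared. In the aged+Ri group, cells of mice over 80 weeks old were held with 100 µM Rhosin, which blocks the small GTPase RhoA. In the aged group, cells of mice over 80 weeks old were kept without the inhibitor. In the young group, cells of mice 10 to 16 weeks old were kept without it. Every group was sorted by surface antigens as lineage-negative, positive for Sca1 and cKit, and negative for CD34 and Flt3. Every group then spent 16 h in a balanced salt solution (10% serum, 3% oxygen, 5% CO2) before RNA was taken, so no library holds freshly lysed cells. The submitters describe the libraries as biological replicates without giving the mice in each, so p-values measure the spread between these libraries.

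Library totals were between 34358101 and 72503142 counts. A count was found for 15387 to 16697 genes in aged+Ri libraries, 15333 to 18288 in aged libraries and 20308 to 21272 in young libraries. The list of 20 markers for long-term stem cells also holds Cd34, Flt3 and Cd48, although the sort took CD34-negative and Flt3-negative cells. A negative change of such genes is not a loss of a stem cell marker. Of the 20, the fitted change was negative for 17 in aged+Ri against aged cells (median -0.62). It was negative for 9 in aged against young (median 0.03) and for 15 in aged+Ri against young cells (median -0.59). Among the 20, edgeR called 1, Procr, which was higher in aged+Ri than in young cells (adjusted p = 0.0394). Kit, the gene of the sorting antigen cKit, had 87.3, 325 and 166 CPM in aged+Ri, 448, 407 and 429 CPM in aged and 652, 655 and 264 CPM in young libraries, and all aged+Ri libraries were below all aged ones. Cd34 transcripts were present, at 8.001 to 34.3 CPM in aged+Ri, 27.6 to 72.0 CPM in aged and 7.96 to 95.7 CPM in young libraries, although the sort took CD34-negative cells. CPM relate the count of a gene to the TMM-scaled total of its library. The 20 monocyte and granulocyte markers summed to 92.4 to 143.0 CPM in aged+Ri, 509.4 to 10777 CPM in aged and 1180 to 3994 CPM in young libraries, and the highest sum was in aged 3. The 19 markers of mature T, NK and B cells in the table summed to 184.8 to 463.6 CPM in aged+Ri, 187.8 to 2069 CPM in aged and 990.7 to 16107 CPM in young libraries, and the highest sum was in young 1. The 19 macrophage and dendritic cell markers summed to 56.9 to 157.5 CPM in aged+Ri, 118.1 to 135.3 CPM in aged and 49.1 to 151.9 CPM in young libraries. Iglc2, an immunoglobulin light chain gene, had 661083 counts in young 1, and the Y-linked gene Ddx3y had 2577 and 6400 counts in young 2 and young 3 and at most 1 in the other libraries, so the young libraries differed among themselves and from the rest. In a bulk library, fewer cells of a type and less RNA per cell cannot be told apart. The part of such cells, of the stem cell markers, or of the sex of the mice, in the results was not tested.

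A DNA element through which interferon switches genes on, the interferon-stimulated response element, was looked for as GAAANNGAAA on either strand. The search used RefSeq promoter windows of the build GRCm38.p6, from 250 bases before to 50 after each start site. Of the 47 members, 36 had a window and 18 of these (50%) held the motif, against 1079 of 27025 genes (3.99%). The longer form GAAANNGAAACT, which contains the first, was in 10 of 36 members (27.8%) and in 0.303% of all genes. A different motif that was also searched, TTCNNNGAA, was in 11 of 36 members (30.6%) and in 9.55% of all genes. The stretches that follow hold the GAAANNGAAA motif of 7 of the 18 members that have it and are shown as examples. They are credited to RefSeq and read 5′ to 3′ in the direction of the gene, with the motif or its reverse complement in capitals. Ifit3 and Ifit3b have the same letters.
Ifit1: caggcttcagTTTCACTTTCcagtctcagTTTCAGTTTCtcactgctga
Ifit3: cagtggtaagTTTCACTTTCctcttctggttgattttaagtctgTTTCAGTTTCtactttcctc
Ifit3b: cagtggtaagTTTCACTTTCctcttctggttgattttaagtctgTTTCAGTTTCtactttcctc
Isg15: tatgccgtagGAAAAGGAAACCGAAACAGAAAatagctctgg
Rsad2: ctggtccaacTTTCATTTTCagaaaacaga
Bst2: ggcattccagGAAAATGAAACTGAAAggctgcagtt
Gbp3: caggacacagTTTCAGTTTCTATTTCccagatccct
These stretches lie at chr19:34640775-34640823 (+) for Ifit1, chr19:34583363-34583426 (+) for Ifit3, chr19:34607759-34607822 (+) for Ifit3b and chr4:156200865-156200906 (-) for Isg15. They lie at chr12:26456553-26456582 (-) for Rsad2, chr8:71537577-71537612 (-) for Bst2 and chr3:142559989-142560024 (+) for Gbp3. All are upstream of the RefSeq start. The first motif base is 104 bases before it in Ifit1, 156 in Ifit3, 188 in Ifit3b, 78 in Isg15, 120 in Rsad2, 130 in Bst2 and 45 in Gbp3. A match of letters is a description of the window, not a test of binding.

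**Figure D1:**
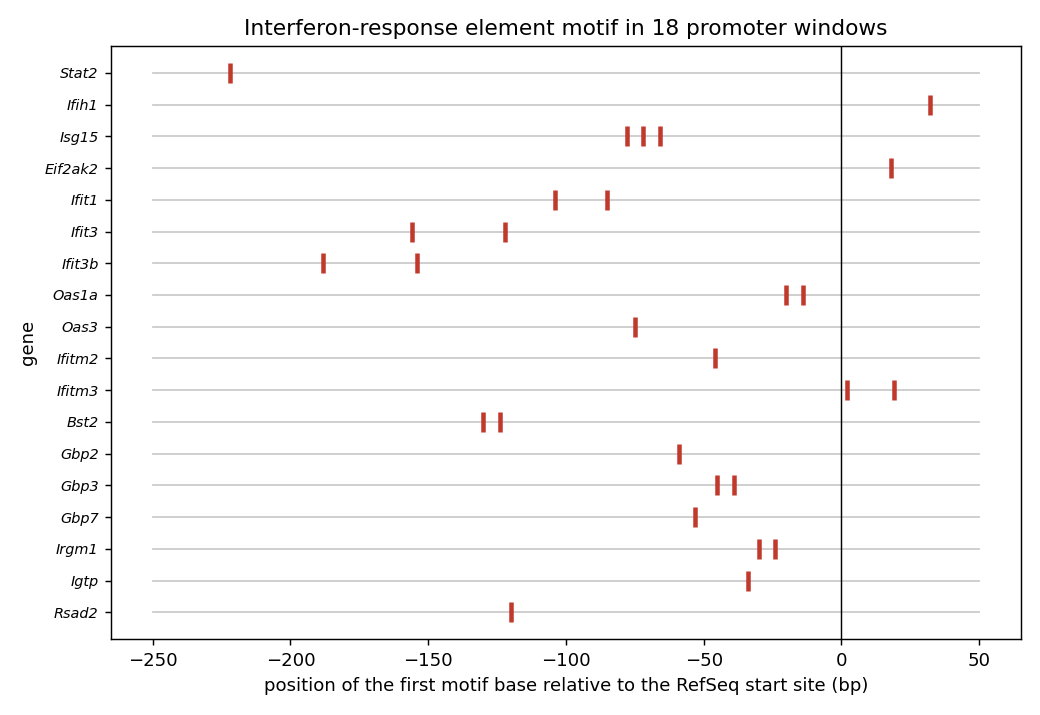
Position of each interferon-stimulated response element motif (red tick, first base) in the promoter windows of 18 members, from 250 bases before to 50 after the RefSeq start (vertical line). In Ifih1, Eif2ak2 and Ifitm3 the ticks lie after the start, and in the other members before it.

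Levels differed widely between members. Per kilobase of exon, the means over 9 libraries were 935 CPM for Ifitm3, 791 for Ifitm2, 375 for Ifitm1, 232 for Ly6e and 49.2 for Ifi27, and the lowest was 0.0399 for Mx1. Ifitm1, Ifitm2 and Ifitm3 encode small membrane proteins that hold back virus fusion, and Ly6e encodes a lipid-anchored surface protein. These 4 genes together held between 55.6% and 73.05% of the summed CPM of the members in a library, which was 2730.3 to 4130.4 CPM in aged+Ri, 3956 to 5232 CPM in aged and 2492 to 3410.3 CPM in young libraries. Among members with other roles, the means per kilobase were 31.8 CPM for Bst2, 13.1 for Oas1a, 5.19 for Ifit1, 2.99 for Isg15 and 0.223 for Mx2.

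**Figure D2:**
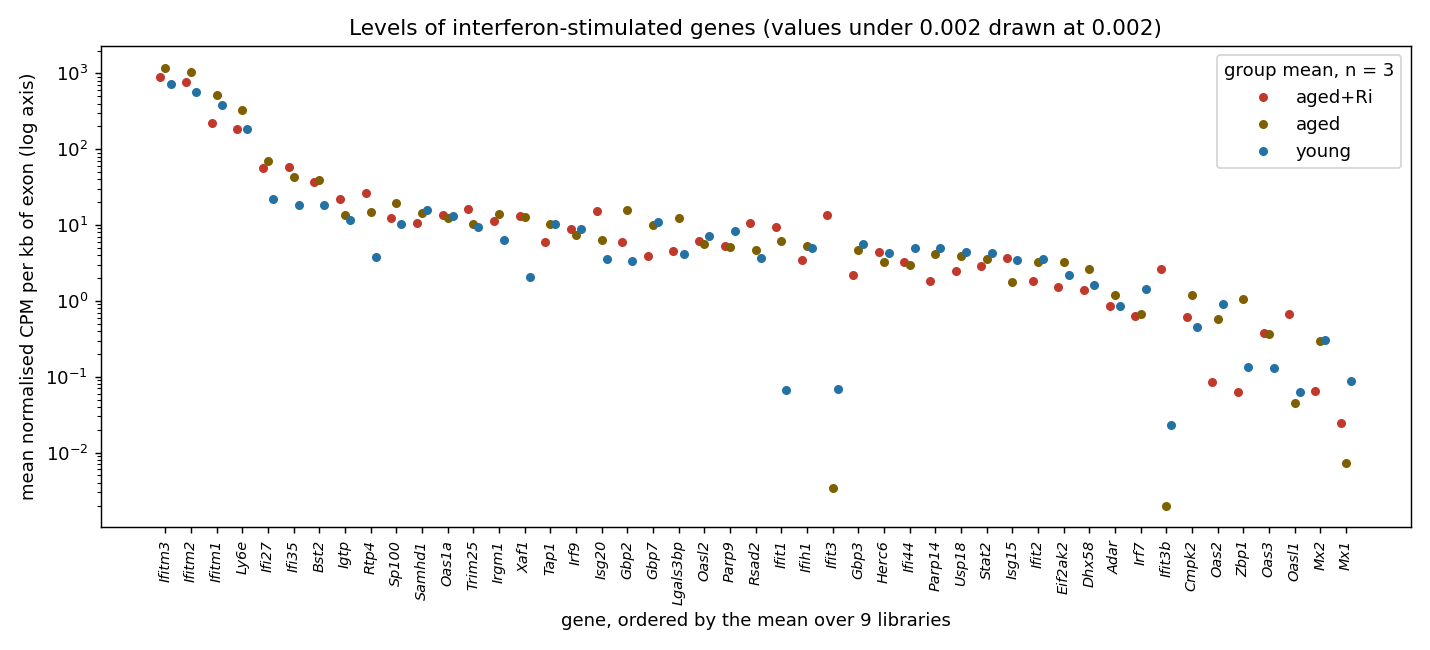
Mean normalised CPM per kilobase of exon (log axis, n = 3 libraries a point) of the 47 genes in aged+Ri, aged and young, ordered by the mean over 9 libraries. Ifitm3 is at the left with 935 and Mx1 at the right with 0.0399, and Ifit3b in aged, listed at 0, is drawn at 0.002.

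In every aged+Ri library Ifit3, Ifit3b and Oasl1 lay above their levels in all aged libraries, and Ifitm1, Lgals3bp, Gbp2 and Parp14 lay below theirs. Between aged+Ri and aged cells, 0 of 47 members passed edgeR's quasi-likelihood test at an adjusted p under 0.05, and 0% of all genes tested did. At an unadjusted p under 0.05, 3 members were higher in aged+Ri (6.38%, against 4.24% of all genes), namely Ifit3, Ifit3b and Oasl1. These entered the test through their aged+Ri counts, where they are high, so their count is a description. Another 3, Ifitm1, Lgals3bp and Parp14, were lower (6.38%, against 4.89%). DESeq2 gave a p-value for 45 of the 47 members and called 2, Ifit3b and Parp14, and limma-voom called 2, Ifit3 and Ifit3b. The fitted log2 change was positive for 20 members and negative for 27, with a median of -0.31, against -0.06 for all genes tested. With the sequencing batch in the model, 23 were positive and 24 negative, with a median of -0.09. Every aged+Ri library was below every aged library for 9 members (19.1%, against 8.66% of all genes), namely Eif2ak2, Oas2, Ifitm1, Ifitm3, Lgals3bp, Tap1, Gbp2, Gbp7 and Parp14. Every aged+Ri library was above every aged library for 5 (10.6%, against 7.87%), namely Trim25, Ifit3, Ifit3b, Oasl1 and Herc6, of which Ifit3, Ifit3b and Oasl1 entered the test through their aged+Ri counts. The median of the members was -0.16 in sequencing batch 1 and -0.33 in batch 2, while batch 3 holds no aged+Ri library. Batch 1 holds aged+Ri 1 and aged 1, batch 2 holds aged+Ri 2 and 3, aged 2 and young 2, and batch 3 holds aged 3 and young 3. All within-batch values here are thus plain differences of log2 CPM with a single library on at least 1 side, not fitted changes.

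In every aged library Ifit1, Xaf1, Ifi27, Gbp2 and Ifitm2 lay above their levels in all young libraries. Between aged and young cells, 0 of 47 members passed edgeR's test, where 0.0331% of all genes tested did. The smallest adjusted p in edgeR among the members was 0.0986, for Ifit1. At an unadjusted p under 0.05, 7 members were higher in aged cells (14.9%, against 6.09% of all genes) and 2 lower (4.26%, against 10.1%). The 7 include Ifit1, which entered the test through its aged+Ri and aged counts, where it is high, so their count is a description. The 2 lower members were Ifit3 and Mx1, which failed the filter with the aged and young libraries alone. DESeq2 called 1 of the 45 members to which it gave a p-value, Ifit1, which is a description for the same reason, and limma-voom called 0. The fitted change was positive for 25 members and negative for 22, with a median of 0.13, against -0.13 for all genes. Without aged 3 the median was -0.02, with 23 positive and 24 negative. It was 0.45 with the sequencing batch in the model (26 and 21) and 0.43 with limma-voom (30 and 17). Every aged library was above every young library for 7 members (14.9%, against 8.58% of all genes), namely Ifit1, Oas3, Ifitm2, Gbp2, Irgm1, Ifi27 and Xaf1. Ifit1 is again among them, so this count is a description too. Every aged library was below every young library for 3 (6.38%, against 16.1%), namely Ifit3, Mx1 and Herc6. Ifit3 had 1 count over the aged group and 14 over the young group, and Mx1 had 5 and 41. Both were thus close to the floor and failed the filter with these groups alone. The median was 0.24 within batch 2 and 0.75 within batch 3, each between a single aged and a single young library. Young 1 spans batches 1 and 3 and enters neither value.

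Between aged+Ri and young cells, edgeR called 2 of 47 members higher, Ifit1 and Ifit3, and 0 lower, where 1.45% of all genes tested were called, 0.959% higher and 0.489% lower. Of these 2, Ifit3 entered the test through its aged+Ri counts, the group in which it is high, and Ifit1 through its aged+Ri and aged counts, so the count of 2 is a description. DESeq2 called 4 of the 45 members to which it gave a p-value, Ifit1, Ifit3b, Xaf1 and Parp14. With limma-voom 2 were called, Ifit1 and Ifit3b. At an unadjusted p under 0.05, 6 members were higher in aged+Ri cells (12.8%, against 9.06% of all genes) and 2 lower (4.26%, against 14.4%). The 6 include Ifit3 and Ifit3b, which entered the test through their aged+Ri counts, so this count is a description too. The median was 0.04, against -0.24 for all genes, with 27 members positive and 20 negative. With DESeq2 size factors, which lowered the median of all genes to -0.31, the median of the members was -0.02, with 22 positive and 25 negative. It was 0.34 with the sequencing batch in the model and 0.40 with limma-voom. Every aged+Ri library was above every young library for 10 members (21.3%, against 12.4% of all genes). These were Trim25, Ifit1, Ifit3, Ifit3b, Oas3, Oasl1, Irgm1, Rtp4, Ifi27 and Xaf1. Of them, Ifit3, Ifit3b and Oasl1 entered the test through their aged+Ri counts, so the count of 10 is a description. Every aged+Ri library was below every young library for 1 member, Parp14 (2.13%, against 19.9%). Within batch 2, the one batch with both groups, the median was 0.34, with young 2 as the single young library. The aged libraries enter the first 2 of these comparisons, the young ones the last 2, and the aged+Ri ones the first and the last, so the comparisons are not independent of each other.

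**Figure D3:**
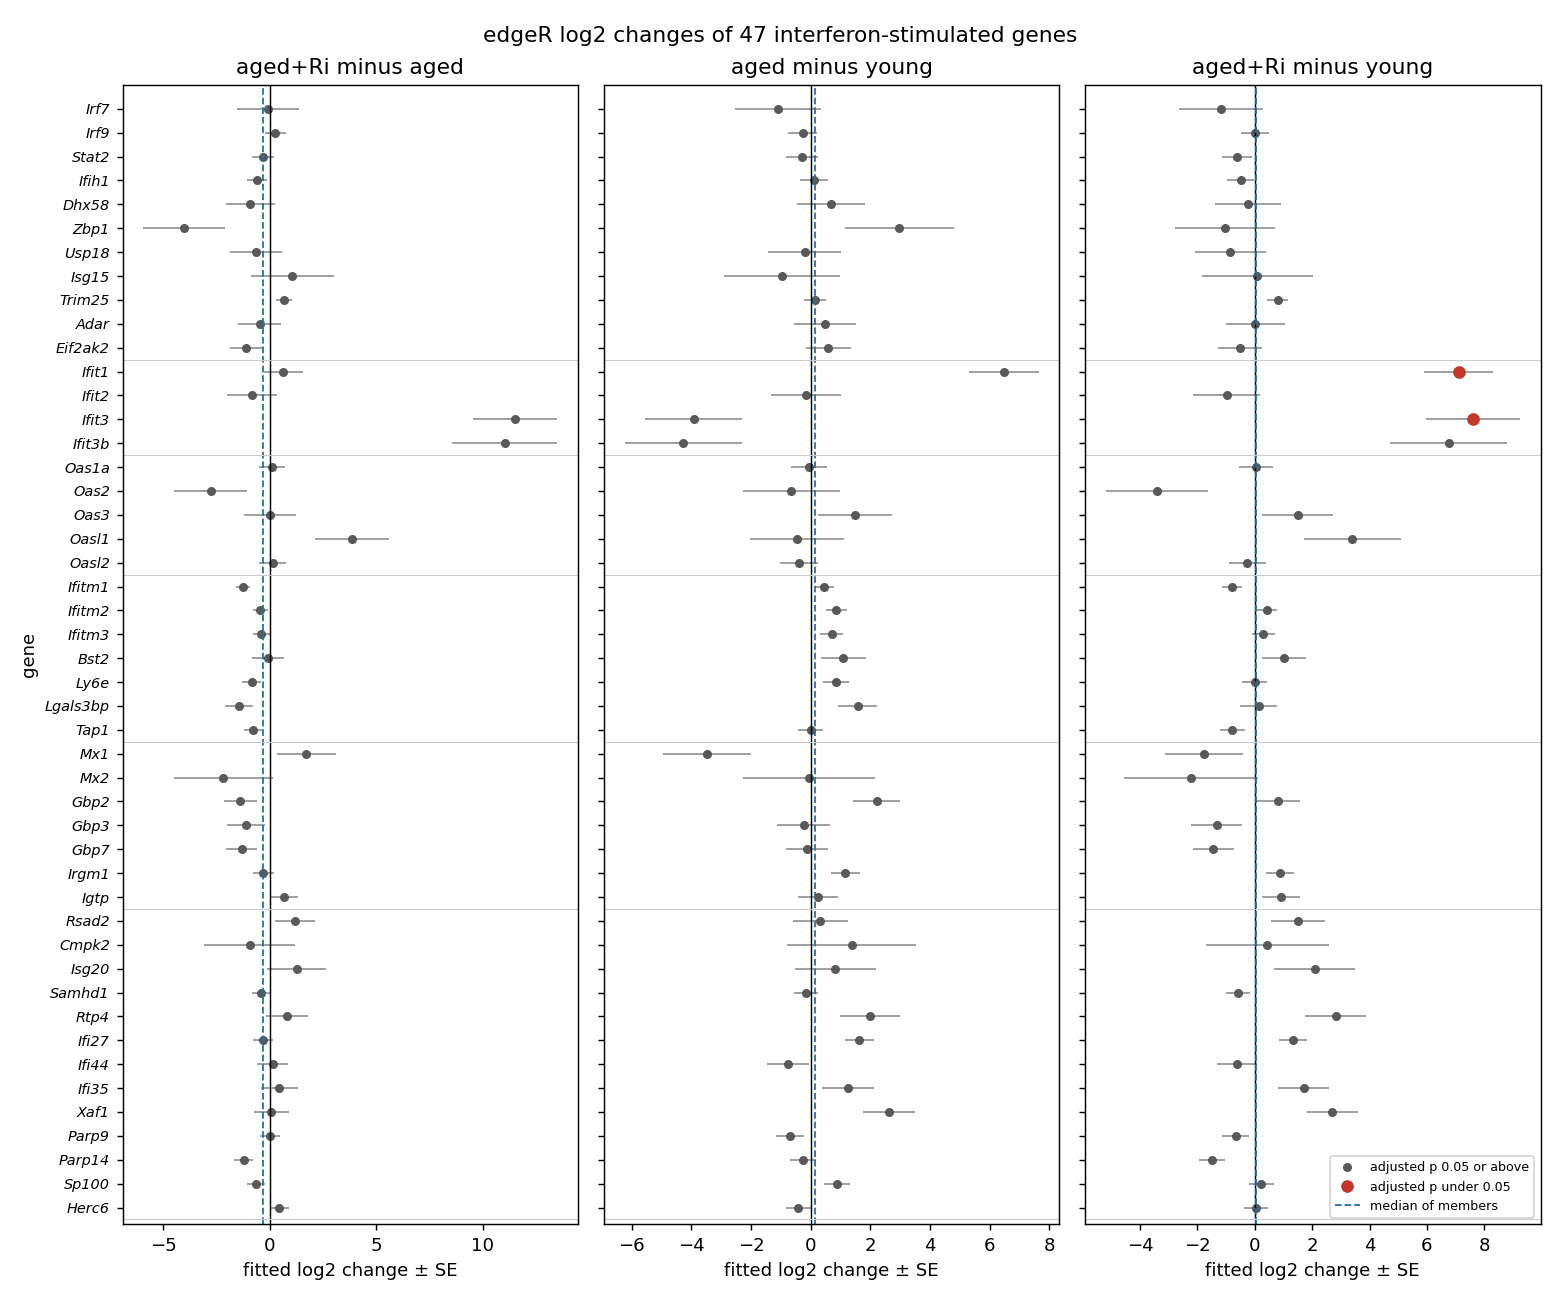
Fitted log2 change with its standard error (horizontal bar) from edgeR for each of the 47 genes, ordered by role, in aged+Ri minus aged, aged minus young and aged+Ri minus young (3 libraries a group). Ifit1 and Ifit3 in the right panel are the points past an adjusted p of 0.05 (red), and the dashed lines mark the medians of -0.31, 0.13 and 0.04.

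The 11 members for sensing and signalling comprise the RNA sensors Ifih1 and Dhx58, the nucleic acid sensor Zbp1, the RNA-editing enzyme Adar and the translation-blocking kinase Eif2ak2. They also comprise the transcription factors Irf7, Irf9 and Stat2, the ubiquitin-like protein Isg15, its protease Usp18, which dampens the receptor, and the ubiquitin ligase Trim25. None of the 11 passed edgeR's test in any of the 3 comparisons. Of their fitted changes, 3 were positive and 8 negative in aged+Ri against aged, 6 and 5 in aged against young, and 4 and 7 in aged+Ri against young. With the sequencing batch in the model these were 5 and 6, 6 and 5, and 5 and 6. Isg15 had 3.68, 1.62 and 3.11 CPM in aged+Ri 1, 2 and 3, against 2.29, 1.75 and 0 CPM in aged 1, 2 and 3. In young 1, 2 and 3 it had 0.0202, 7.78 and 0.114 CPM. The 3 groups overlapped, and the highest and the lowest nonzero value of Isg15 both lay in the young group.

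Usp18 was likewise uneven in young cells, with 3.00, 4.63 and 12.99 CPM in aged+Ri, 9.38, 7.39 and 15.5 CPM in aged and 9.22, 0.102 and 27.7 CPM in young libraries. Zbp1 had 0, 0.449 and 0.226 CPM in aged+Ri, 3.09, 0.0723 and 7.95 CPM in aged and 0.829, 0.153 and 0.428 CPM in young libraries. The library aged 3 held more than 50% of the summed CPM of Zbp1 over the 9 libraries, and aged 2 was the lowest of its group. Trim25 had 102, 94.5 and 87.9 CPM in aged+Ri, without overlap, against 64.6, 79.8 and 35.4 CPM in aged libraries. The difference for Trim25 was 0.66 ± 0.37 on the log2 scale (edgeR, standard error, adjusted p = 0.636). Eif2ak2 had 6.32, 8.43 and 8.56 CPM in aged+Ri, against 13.8, 15.4 and 21.1 CPM in aged libraries, a difference of -1.11 ± 0.77 (edgeR adjusted p = 0.737).

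The IFIT proteins bind viral RNA and block its translation. Their 4 genes lie close together on chromosome 19, and 3 of them showed the widest differences among the members. Ifit1 had 44.9, 10.2 and 19.99 CPM in aged+Ri 1, 2 and 3. It had 5.98, 6.20 and 36.2 CPM in aged 1, 2 and 3, and 0.344, 0.128 and 0.0570 CPM in young 1, 2 and 3. All 3 aged+Ri and all 3 aged libraries were above all young ones, while aged+Ri and aged overlapped. In counts, Ifit1 summed to 2900 in aged+Ri, 3057 in aged and 24 in young cells. It passed the filter on low counts through its aged+Ri and aged libraries, where it is high, so its calls are given as descriptions. It rose in aged+Ri against young cells by 7.11 ± 1.21 on the log2 scale (edgeR adjusted p = 0.0188). The same call was lost without aged+Ri 1 (edgeR adjusted p = 0.0663) and without aged+Ri 3 (edgeR adjusted p = 0.0676). In aged against young cells the difference was 6.47 ± 1.17 (edgeR adjusted p = 0.0986, and 1e-08 to 0.328 over the alternatives). Between single libraries of a batch it was 5.21 in batch 2 and 8.54 in batch 3. For aged+Ri against young it was 6.42 in batch 2, with young 2 as the single young library. Between aged+Ri and aged cells it was 0.64 ± 0.92 (edgeR adjusted p = 0.929), and -0.10 without aged+Ri 1.

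Ifit3 had 3.62, 3.04 and 63.9 CPM in aged+Ri 1, 2 and 3, against 0, 0.0181 and 0 CPM in aged 1, 2 and 3. In young 1, 2 and 3 it had 0.0809, 0.0510 and 0.228 CPM. No aged+Ri value overlapped with either other group, and aged+Ri 3 held more than 50% of the sum over all libraries. In aged+Ri against young cells the log2 difference of Ifit3 was 7.60 ± 1.64 (edgeR adjusted p = 0.0394), with 2568 counts over the aged+Ri group and 14 over the young group. Ifit3 passed the filter on low counts through the aged+Ri libraries alone, where it is high, so its call is given as a description. The call was lost with the sequencing batch in the model (adjusted p = 0.123 in edgeR), under limma-voom, in the newer quasi-likelihood method and with only the 2 groups compared. It was also lost in 7 of the 9 fits with 1 library left out, and without aged+Ri 3 the change was 4.80 (edgeR adjusted p = 0.179). Against aged cells, with 2568 counts over the aged+Ri group and 1 over the aged group, the ratio of group totals after scaling was 3814, with an exact Poisson 95% interval of 684 to 150692 that covers counting error only. The edgeR test of that difference gave an adjusted p of 0.127 (0.0160 to 0.471 over the alternatives).

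Ifit3b, a close copy of Ifit3, had 3.45, 0.501 and 11.9 CPM in aged+Ri 1, 2 and 3, against 0 CPM in each aged library. In young 1, 2 and 3 it had 0.0809, 0 and 0.0570 CPM. The mean CPM of Ifit3b was at least 111-fold higher in aged+Ri than in aged cells when each aged library is set at 3 counts (edgeR adjusted p = 0.276, and 1.35e-05 to 0.622 over the alternatives). Ifit3b too passed the filter through the aged+Ri libraries alone. The longest transcripts of Ifit3 and Ifit3b are 98.0% identical over 1697 aligned bases, so the split of reads between them is uncertain. Summed over both genes there were 252, 205 and 2686 counts in aged+Ri 1, 2 and 3, against 0, 1 and 0 in aged 1, 2 and 3 and 8, 2 and 10 in young 1, 2 and 3. The sum thus kept the gap between aged+Ri and both other groups in every library. The promoter windows of both genes, shifted by 32 bases and compared without gaps, have the same base at 75% of 268 positions. They hold a run of C of unequal length, after which the bases are out of step, so 75% does not measure their aligned identity. The motif stretches printed above are the same.

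Ifit2, the remaining member of the cluster, did not share this order. It had 0.477, 2.16 and 18.9 CPM in aged+Ri, 5.01, 23.3 and 9.90 CPM in aged and 17.4, 22.2 and 2.85 CPM in young libraries, with overlap between all groups. Ifit2 and Ifit3 lie 7112 bases apart in the annotation of the build GRCm38, the shortest gap between members of the cluster. The log2 difference between aged+Ri and aged cells was -0.83 ± 1.17 (edgeR adjusted p = 0.926).

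**Figure D4:**
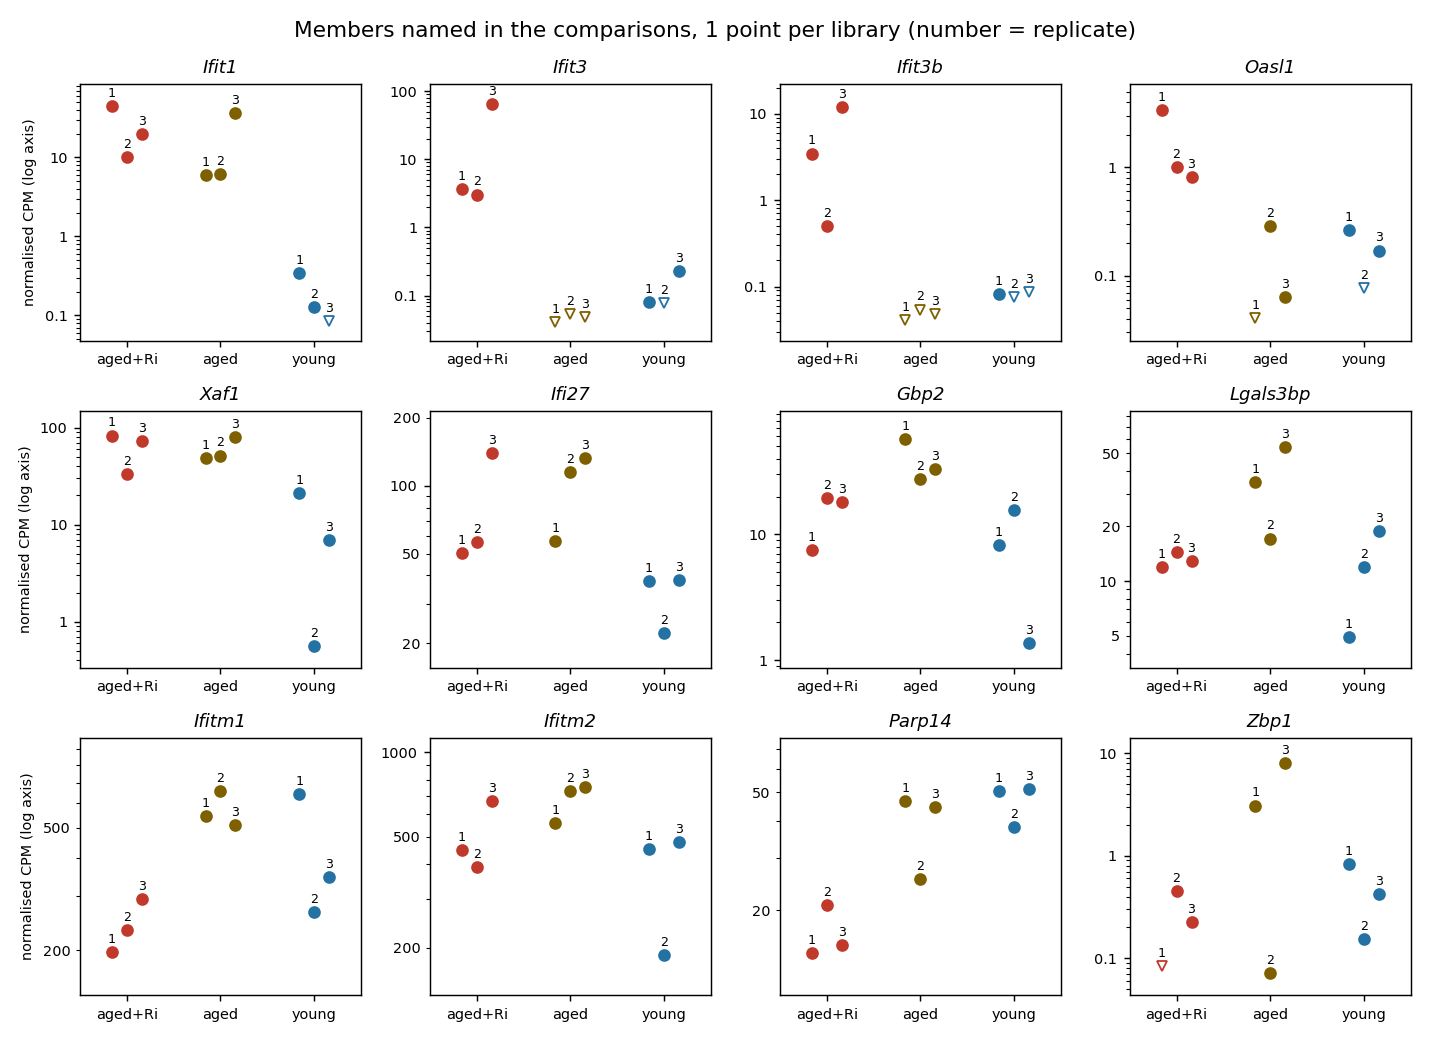
Normalised CPM (log axis) of 12 members in single libraries, with the replicate number above each point. Open triangles mark libraries under 3 counts, drawn at the level of 3 counts. Ifit3 and Ifit3b lie above the other groups in all aged+Ri libraries, and Ifit1 lies lowest in the young libraries.

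OAS proteins make a messenger that activates an RNA-cutting enzyme, and Oasl1 is known to lack that activity. None of the 5 genes passed edgeR's test in any comparison. Oasl1 had 3.40, 1.02 and 0.819 CPM in aged+Ri 1, 2 and 3, against 0, 0.289 and 0.0636 CPM in aged 1, 2 and 3. In young 1, 2 and 3 it had 0.263, 0.0510 and 0.171 CPM. All 3 aged+Ri libraries were above all others, at levels near 1 CPM, and Oasl1 passed the filter through these libraries alone. The log2 difference of Oasl1 was 3.87 ± 1.74 in aged+Ri against aged cells (edgeR adjusted p = 0.524) and 3.41 ± 1.70 against young cells (edgeR adjusted p = 0.246). Oas2 had 0.197, 0 and 0.932 CPM in aged+Ri, against 2.66, 3.09 and 1.94 CPM in aged libraries, and the young libraries reached from 0.281 to 8.75 CPM. Oas1a, whose transcript is 97.7% identical to that of Oas1g over 1859 bases, lay between 10.4 and 39.5 CPM in all 9 libraries and had fitted changes of 0.11, -0.06 and 0.04 in the order of the comparisons above, which had the other sign in 2, 4 and 7 of 18 alternative fits. Oas3 and Oasl2 also had no adjusted p under 0.05 in edgeR.

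The 7 genes grouped as IFITM and surface proteins include Ifitm1, Ifitm2 and Ifitm3, Bst2, which tethers budding virus, and Tap1, which feeds peptides to MHC class I. The fitted change was negative for 7 of 7 in aged+Ri against aged cells, with a median of -0.77 and a range of -1.43 to -0.09, and this count was the same with DESeq2 size factors and with the sequencing batch in the model. It was 6 of 7 without aged+Ri 1, without aged+Ri 3 or without aged 1. In aged against young cells, 6 of 7 were positive, with a median of 0.84. In the same contrast of aged+Ri with aged cells, 17 of the 20 genes listed for long-term stem cells were negative too, with a median of -0.62. That list includes Cd34, Flt3 and Cd48. None of the 7 passed edgeR's test in any comparison. Ifitm1 had 198, 233 and 294 CPM in aged+Ri 1, 2 and 3, against 545, 658 and 511 CPM in aged 1, 2 and 3. In young 1, 2 and 3 it had 643, 266 and 346 CPM. The aged+Ri libraries were all below the aged ones, whereas young 2 lay within the aged+Ri range. The log2 difference of Ifitm1 in aged+Ri against aged cells was -1.24 ± 0.34 (edgeR unadjusted p = 0.00272, adjusted p = 0.335, and 0.0821 to 0.769 over the alternatives). It was -1.46 within batch 1, between aged+Ri 1 and aged 1, and -1.33 within batch 2, where aged 2 is the single aged library.

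Ifitm3, the member with the highest level, had 604, 494 and 724 CPM in aged+Ri, 789, 834 and 782 CPM in aged and 878, 358 and 239.9 CPM in young libraries. The aged values lay close together, and the young values spanned 3.66-fold. Ifitm2 had 446, 391 and 671 CPM in aged+Ri, 558, 726 and 751 CPM in aged and 453, 189 and 479.6 CPM in young libraries. All aged libraries were above all young ones for Ifitm2, with a log2 difference of 0.86 ± 0.36 (edgeR adjusted p = 0.267). Ly6e had 449.9, 600.4 and 1031 CPM in aged+Ri, 828, 1260.3 and 1648 CPM in aged and 334, 603 and 1144 CPM in young libraries, and its groups overlapped. Lgals3bp, a secreted protein that binds galectins, had 11.99, 14.4 and 12.8 CPM in aged+Ri, 34.7, 17.1 and 54.2 CPM in aged and 4.91, 11.9 and 18.8 CPM in young libraries. The differences of Lgals3bp were -1.43 ± 0.65 in aged+Ri against aged cells (edgeR adjusted p = 0.537) and 1.57 ± 0.66 in aged against young cells (edgeR adjusted p = 0.268).

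The GTPases include Mx1 and Mx2, which trap viral particles, the guanylate-binding proteins Gbp2, Gbp3 and Gbp7, and the immunity-related GTPases Irgm1 and Igtp, which act on the membranes around intracellular microbes and are chiefly known as targets of interferon gamma. None of the 7 passed edgeR's test in any comparison. In aged+Ri against aged cells, 5 were negative and 2 positive, and without aged 3 it was 4 and 3. Gbp2 had 7.496, 19.4 and 17.96 CPM in aged+Ri, 56.8, 27.6 and 33.1 CPM in aged and 8.23, 15.7 and 1.37 CPM in young libraries. The aged libraries stood above both other groups without overlap. The log2 differences of Gbp2 were -1.39 ± 0.78 in aged+Ri against aged (edgeR adjusted p = 0.632), 2.21 ± 0.80 in aged against young (edgeR adjusted p = 0.228) and 0.82 ± 0.77 in aged+Ri against young cells (edgeR adjusted p = 0.546). Within batches, aged against young for Gbp2 was 0.81 in batch 2 and 4.55 in batch 3, each a difference between single libraries. Mx1, the reporter gene of many interferon studies, had 15 counts over the aged+Ri group, 5 over the aged group and 41 over the young group, so it was close to the floor everywhere. Its C57BL/6 allele is known to carry a deletion.

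The 13 remaining members are effectors of several kinds. Ifi27 encodes a mitochondrial membrane protein and Xaf1 a protein that promotes cell death. Parp9 and Parp14 encode ADP-ribosyltransferases, Rsad2 the enzyme viperin, and Cmpk2 the kinase encoded next to it. None passed edgeR's test in any comparison. Xaf1 had 82.8, 33.2 and 71.8 CPM in aged+Ri, 48.1, 51.5 and 79.5 CPM in aged and 21.2, 0.561 and 6.96 CPM in young libraries. The young libraries were all below the others, and aged+Ri and aged overlapped. The log2 differences of Xaf1 were 2.64 ± 0.87 in aged against young (edgeR adjusted p = 0.210) and 2.71 ± 0.88 in aged+Ri against young cells (edgeR adjusted p = 0.105).

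Ifi27 had 50.4, 56.4 and 140.0 CPM in aged+Ri, 56.6, 115 and 133 CPM in aged and 37.6, 22.2 and 38.2 CPM in young libraries, again with the young libraries lowest. Its differences were 1.64 ± 0.49 in aged against young (edgeR adjusted p = 0.196) and 1.33 ± 0.48 in aged+Ri against young cells (edgeR adjusted p = 0.134). Parp14 went the other way, with 14.3, 20.8 and 15.2 CPM in aged+Ri, 46.8, 25.5 and 44.5 CPM in aged and 50.5, 38.2 and 51.2 CPM in young libraries. All aged+Ri libraries were below all others for Parp14, with a log2 difference of -1.22 ± 0.45 against aged (edgeR adjusted p = 0.454) and -1.48 ± 0.46 against young cells (edgeR adjusted p = 0.0987). Rsad2 and Cmpk2, which lie 12752 bases apart, differed in their order over libraries. Rsad2 was highest in aged+Ri 1, at 98.2 CPM, where Cmpk2 had 0.0281 CPM, and Cmpk2 was highest in aged 3, at 12.7 CPM.

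The library that held the highest value differed between members. The library aged 3 held the highest value of 12 of the 47 members (25.5%), while it held the highest value of 11.5% of all genes tested. It is also the library with the highest sum of monocyte and granulocyte markers. Aged+Ri 2 held the highest value of 0 members, against 5.25% of all genes. Among the 44 members averaging at least 1 CPM, 3 (Zbp1, Ifit3 and Ifit3b) had more than 50% of their sum in 1 library (6.82%, against 6.41% of all genes). The highest library exceeded the lowest by 10-fold or more, with values under 3 counts set at 3 counts, for 6 of the 44 in aged+Ri (13.6%, against 11.5% of all genes), 4 in aged (9.09%, against 12.9%) and 15 in young cells (34.1%, against 25.9%). In the young group these 15 included Usp18, Isg15, Rsad2, Isg20, Rtp4, Ifi35 and Xaf1. Young 1 was the lowest of its group for Rtp4 (0.425 CPM) and Ifi35 (1.44 CPM), young 2 for Usp18 and Xaf1, and young 3 for Rsad2 (0.969 CPM). The lowest library thus differed between these genes.

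**Figure D5:**
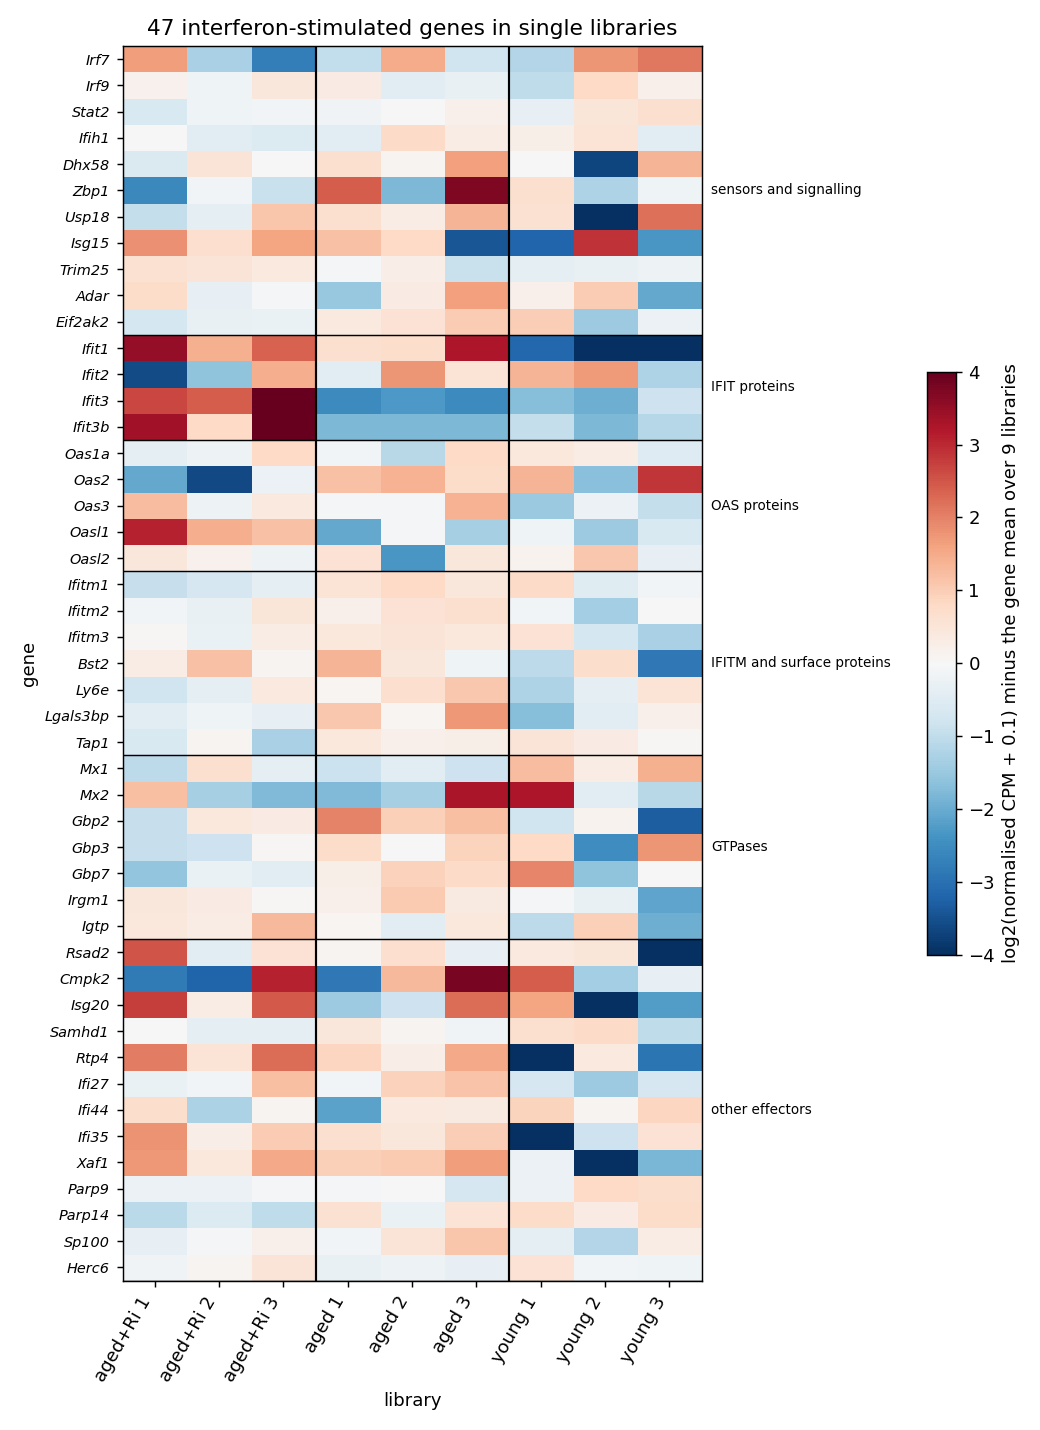
Each of the 47 genes (rows, by role) in each of 9 libraries (columns), as log2(normalised CPM + 0.1) minus the mean of the gene over the libraries, with colours limited to 4 in each direction. Ifit3 is red in every aged+Ri library, and Ifit3b is red in aged+Ri 1 and 3 and paler in aged+Ri 2. Both are blue in aged and young. The IFITM rows are pale throughout, and the young columns differ among themselves.

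Members with and without the sequence motif were set side by side. Of the 18 members with the motif, 8 had a positive change in aged+Ri against aged cells (median -0.20), and of the 18 with a window without it 9 did (median -0.00). In aged against young cells these were 11 (median 0.28) and 9 (median 0.07), and in aged+Ri against young cells 13 (median 0.63) and 11 (median 0.03). These medians are descriptions and were not tested.

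The other genes of the pathway were counted from lists that hold no member. The 12 interferon ligands in the table all failed the filter on low counts, and their sum was 0.0518 to 0.225 CPM in aged+Ri, 0 to 0.246 CPM in aged and 0.510 to 0.827 CPM in young libraries. Of the 12, 9 had 0 counts over the aged+Ri group, Ifnb1 among them, 9 had 0 over the aged group and 1 had 0 over the young group. A library with 3 counts of a gene has 0.0410 to 0.0855 CPM of it. Of the 25 genes for receptors and signal transduction, 0 were called in any of the 3 comparisons by edgeR. The receptor chain Ifnar1 had 22.3, 21.2 and 18.2 CPM in aged+Ri, 39.3, 25.01 and 29.9 CPM in aged and 37.3, 4.31 and 39.6 CPM in young libraries.

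Of 16 genes of MHC class I and antigen processing, 0 were called in any comparison. In aged+Ri against aged cells 5 were positive and 11 negative, with a median of -0.27, and in aged against young cells 13 were positive and 3 negative, with a median of 0.61. Psme2, an activator subunit of the proteasome, had 207, 169 and 241 CPM in aged+Ri, 267, 260.4 and 290.4 CPM in aged and 201, 74.0 and 142 CPM in young libraries. Of 60 further interferon-induced genes that were tested, 0 were called in any comparison. In aged+Ri against aged cells 18 of them were positive and 42 negative, with a median of -0.55, and in aged against young cells 37 were positive and 23 negative, with a median of 0.20. Tnfsf10, the death ligand TRAIL, had 0.337, 0.225 and 0.932 CPM in aged+Ri, 8.58, 9.79 and 14.7 CPM in aged and 5.48, 7.98 and 7.73 CPM in young libraries. All aged+Ri libraries were below all others for Tnfsf10, with a difference of -4.47 ± 1.06 against aged (edgeR adjusted p = 0.276) and -3.83 ± 1.03 against young cells (edgeR adjusted p = 0.0759). In the same contrast of aged+Ri with aged cells, the fitted change was negative for 19 of 19 monocyte and granulocyte markers tested and for 17 of 17 markers of mature T, NK and B cells, of which edgeR called 0. The part of these cells in the levels of Tnfsf10, the IFITM genes and the guanylate-binding proteins was not tested. Ly6a, which encodes the sorting antigen Sca1, had 222, 541 and 372 CPM in aged+Ri, 538, 337 and 435 CPM in aged and 445, 602 and 717 CPM in young libraries, and the 3 groups overlapped.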

How the data were processed

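RNA was sequenced from 9 libraries of sorted mouse LT-HSCs, prepared with SMART-Seq v4 and Nextera XT per the labels' protocols. The table deposited by the authors holds estimated counts per gene, since the values in each library include numbers that are not whole. Per the submitters' processing notes, the tools were featureCounts, whose version is not stated there, STAR 2.7.0, cutadapt 1.18, R 4.2.0 and SAMtools 1.14, with the build GRCm38. Whether strand was used in counting is not given in the sources used here, so members that overlap another gene are uncertain.

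These estimated counts were first rounded to whole numbers. Genes were kept by edgeR's filterByExpr (edgeR 4.0.16, R 4.3.3), scaled by TMM and fitted with 1 quasi-likelihood model of group means over the 9 libraries, with 6 residual degrees of freedom. Comparisons were tested two-sided at a threshold of 0.05, after Benjamini-Hochberg adjustment over the 15127 genes. Changes are on the log2 scale with standard errors. In every group, each pair of replicates differed beyond sampling noise. A median or count over members carries no test. Sequences and motifs come from RefSeq windows, and 11 members had none. Alternatives were DESeq2 1.42.0, its size factors, limma-voom (limma 3.58.1), the newer quasi-likelihood method, no filter, a stricter filter (10 counts in each library of a group and 5 CPM), only the 2 groups compared, replicate number, sequencing batch, and each library left out. Of these steps, the edgeR fit of aged against young was tested on simulated counts, with known changes set in genes above 5 CPM. The other steps were not tested in this way.

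Values per library are given for members past the threshold, for the 6 members with the smallest unadjusted p in each comparison and at least 1 CPM, for members with over 50% of their sum in 1 library, and for the 5 with the highest level per kilobase. Isg15, Usp18, Trim25, Eif2ak2, Ifit2, Oas2, Rsad2, Cmpk2 and Mx1 are given as members outside that rule, and were chosen after their values were seen. The members and lists were chosen with earlier results of these data known. Psme2 and Tnfsf10 are named as genes with a small unadjusted p in their lists. An item of the gene lists is not reported here.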

Additional observations from a re-analysis of the deposited data

How the results depend on the processing

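Over the alternative fits, the change kept its sign for 31 of 47 members in aged+Ri against aged, 26 in aged against young and 31 in aged+Ri against young, and had the other sign at least once for 16, 21 and 16, with Usp18, Oas1a and Cmpk2 among them in each comparison. Against 5 genes called for aged against young cells, DESeq2 gave 744, limma-voom 18, the newer quasi-likelihood method 21, no filter 20 and only the 2 groups 1. Against 0 for aged+Ri against aged, these gave 318, 55, 5, 11 and 2. Sequencing batch as a covariate gave 5. Against 219 for aged+Ri against young, DESeq2 gave 1862, limma-voom 626, the newer method 463 and only the 2 groups 57. With 1 library left out, the counts ranged from 2 to 80, from 0 to 6 and from 18 to 532 in that order. They were lowest without aged 3 and highest without young 3 for aged against young, highest without aged 1 for aged+Ri against aged, and lowest without aged+Ri 3 and highest without young 3 for aged+Ri against young. Of the members, DESeq2 called 1, 2 and 4, each of the 45 to which it gave a p-value. With no filter 1, 1 and 2 of the 47 were called. In aged+Ri against aged, limma-voom called 2. In aged+Ri against young, where 2 were called, the newer method, only the 2 groups and the batch covariate each gave 1, and the fits with 1 library left out gave 0 to 2. They gave 0 without aged+Ri 1 or aged+Ri 3, and 1 without any single aged library or young 1. The cause was not tested. The median of the members with 1 library left out ranged from -0.46 to -0.19, from -0.02 to 0.40 and from -0.17 to 0.23 in aged+Ri against aged, aged against young and aged+Ri against young. In aged+Ri against young it was negative without aged+Ri 3 (-0.17), with the stricter filter (-0.08), with DESeq2 (-0.02) and with DESeq2 size factors (-0.02). In aged against young it was negative without aged 3. Within batch 3, between the single libraries aged 3 and young 3, it was 0.75. Of the members with a promoter window, 27.8% held the longer motif.

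The replicate block, a model term for the replicate number, gave 2 genes called in aged+Ri against aged, 6 in aged against young and 226 in aged+Ri against young, and 0, 0 and 2 members. Its median of the members was 0.47 in aged against young, with 30 positive and 17 negative. Correlations of the deviations of libraries with the same number were -0.07 to 0.16, so the numbers were not taken to pair the samples. Depth limits Ifit1, Mx1, Oasl1, Ifit3 and Ifit3b, which had 0 to 41 counts over a group in at least 1 of the aged and young groups.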
